A study of Mus musculus with 24 samples.

Results

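Type I interferon response genes are the genes that cells switch on when interferon alpha or beta binds its receptor. A list of 38 of them was followed here across 24 mouse bone marrow arrays in 6 groups. A gene entered when a probe set carrying its symbol alone measured it, and each such gene had 1 probe set. This left 36 genes of the 19938 measured with 1 symbol, all of which were tested with no filter on dim probe sets. Isg15 shares its probe set with a second symbol, and Ifi44 was not named by a probe set, so neither was analysed here. The arrays report RMA-normalised log2 intensities, so a level below is a log2 intensity, and a difference of 1 is a doubling.

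The study set leukaemic and preleukaemic marrow against wild-type B cells. The Sca1-BCR/ABLp190 transgene places the oncogene of Philadelphia-positive leukaemia under the Sca1 promoter, which is active in blood stem and progenitor cells, and Pax5+/- animals also carry a single working copy of the B cell identity gene Pax5. There were 7 arrays of tumour-bearing marrow from Sca1-BCR/ABLp190+Pax5+/- mice, called Pax5+/- leukaemias here, and 2 from Sca1-BCR/ABLp190 mice, called BCR/ABL leukaemias. Wild-type B220+ marrow B cells gave 5 arrays. The precursors were proB and preB cells, taken before leukaemia in the transgenic mice, with 3 arrays of Pax5+/- precursors, 3 of BCR/ABL precursors, both carrying the transgene, and 4 of wild-type precursors (the series description counts 3 wild-type mice, and all 4 arrays were used). Replicates are labelled biological. All animals, wild-type ones included, lived in a conventional facility with exposure to common pathogens. The labels name no strain, no age and no sort of the leukaemic marrow.

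Type I interferons signal through the receptor chains IFNAR1 and IFNAR2 to a complex holding STAT2 and IRF9, which binds the interferon-stimulated response element in the promoters of its targets. The products sense foreign RNA and DNA, degrade RNA, block translation and viral budding, and feed back on the pathway itself. In bone marrow the response is known to be raised by infection and to act on stem cells and B cell precursors.

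Promoter sequence was taken from a set of mouse promoters (build GRCm38.p6), which held an entry for 25 of the 36 genes. A gene without an entry in this set can still be present in RefSeq. The core of the response element was searched on both strands in the 250 bases before each gene's start, as GAAA, any 2 bases and GAAA again, or TTTC, any 2 bases and TTTC. It was present in 7 of the 25 genes (28%), against 3.4% of the 15563 measured genes with an entry. The motif TTCNNNGAA, a common form of the element of the interferon gamma pathway, was present in 5 of the 25 (20%), against 7.73%. The 6 genes below hold the first motif and passed the test in the most comparisons among its holders. They show which letters the response element takes in genes whose levels follow, and capitals mark every match, with overlapping matches run together. All are written in the direction of transcription, ending at the base before the start.
Oas3 (chr5:120777660-120777909, minus strand): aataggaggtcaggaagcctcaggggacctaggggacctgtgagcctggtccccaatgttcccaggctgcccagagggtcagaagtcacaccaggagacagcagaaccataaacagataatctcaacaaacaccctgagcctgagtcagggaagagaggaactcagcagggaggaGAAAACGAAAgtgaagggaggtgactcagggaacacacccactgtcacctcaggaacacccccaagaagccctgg
Ifit1 (chr19:34640639-34640888, plus strand): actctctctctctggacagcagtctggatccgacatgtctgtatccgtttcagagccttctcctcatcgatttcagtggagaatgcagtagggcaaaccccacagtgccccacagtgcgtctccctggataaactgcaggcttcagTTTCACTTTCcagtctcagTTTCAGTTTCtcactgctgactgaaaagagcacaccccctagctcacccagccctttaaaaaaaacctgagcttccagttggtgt
Oas1a (chr5:120907526-120907775, minus strand): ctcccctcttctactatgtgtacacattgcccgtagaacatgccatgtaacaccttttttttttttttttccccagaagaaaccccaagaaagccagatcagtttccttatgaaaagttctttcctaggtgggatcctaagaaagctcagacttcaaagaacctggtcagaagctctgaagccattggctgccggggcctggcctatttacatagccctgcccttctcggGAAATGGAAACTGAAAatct
Ifit3 (chr19:34583279-34583528, plus strand): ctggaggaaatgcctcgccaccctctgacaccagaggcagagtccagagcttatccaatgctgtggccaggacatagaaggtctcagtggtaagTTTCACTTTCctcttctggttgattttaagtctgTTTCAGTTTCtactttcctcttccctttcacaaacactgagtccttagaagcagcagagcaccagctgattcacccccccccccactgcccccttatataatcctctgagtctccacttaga
Bst2 (chr8:71537473-71537722, minus strand): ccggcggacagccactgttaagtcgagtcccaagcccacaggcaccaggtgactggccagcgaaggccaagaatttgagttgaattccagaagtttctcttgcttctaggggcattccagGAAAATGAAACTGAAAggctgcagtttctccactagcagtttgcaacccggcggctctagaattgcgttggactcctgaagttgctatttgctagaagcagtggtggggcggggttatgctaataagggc
Rsad2 (chr12:26456453-26456702, minus strand): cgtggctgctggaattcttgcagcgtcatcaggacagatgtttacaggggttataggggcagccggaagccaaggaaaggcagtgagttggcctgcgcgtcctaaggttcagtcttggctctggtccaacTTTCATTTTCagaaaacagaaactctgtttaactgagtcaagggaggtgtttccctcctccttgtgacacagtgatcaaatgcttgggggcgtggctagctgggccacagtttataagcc
Ifit1 and Ifit3 carried the same pair of words, TTTCACTTTC and TTTCAGTTTC, and Oas1a and Bst2 each carried 2 overlapping matches. A match describes these letters and does not show that the element is used. Stat2 was the other holder. Several members are next to each other among protein-coding genes in RefSeq: Rsad2 with Cmpk2, Oas2 with Oas3, Oasl1 with Oasl2, Ifit2 with Ifit3, and Parp14 with Dtx3l and Parp9.

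The arrays differed in the cells they held. B lineage markers averaged 8.44 to 10.48 in the leukaemic marrow, 12.39 to 12.58 in the B220+ cells and 11.43 to 11.85 in the precursors, so the leukaemic marrow did not read as a pure B cell sample. Monocyte and macrophage markers averaged 7.94 to 10.09 in the leukaemic marrow and 6.53 to 7.16 elsewhere. Log2 intensities have no zero, so the absence of a marker was not judged. In such bulk samples, fewer cells of a type and less RNA per cell cannot be told apart. By Xist level, the B220+ cells (5 arrays) and the wild-type precursors (4 arrays) were all female and the BCR/ABL precursors (3 arrays) all male, so sex and genotype cannot be told apart in the comparison of BCR/ABL with wild-type precursors. The Pax5+/- leukaemias came from 4 males and 3 females, the BCR/ABL leukaemias from 1 of each, and the Pax5+/- precursors from 2 males and 1 female. Sex thus also differed in part between these groups and the all-female wild-type arrays. No comparison with the BCR/ABL leukaemias or the Pax5+/- precursors was run on female arrays alone. Test results are from limma, with p-values adjusted over all 19938 genes and a threshold of 0.05. Shares of all genes called are given for this threshold in the main fits. None is given at an unadjusted p or for other settings, so member counts stated there have no background beside them.

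**Figure D1:**
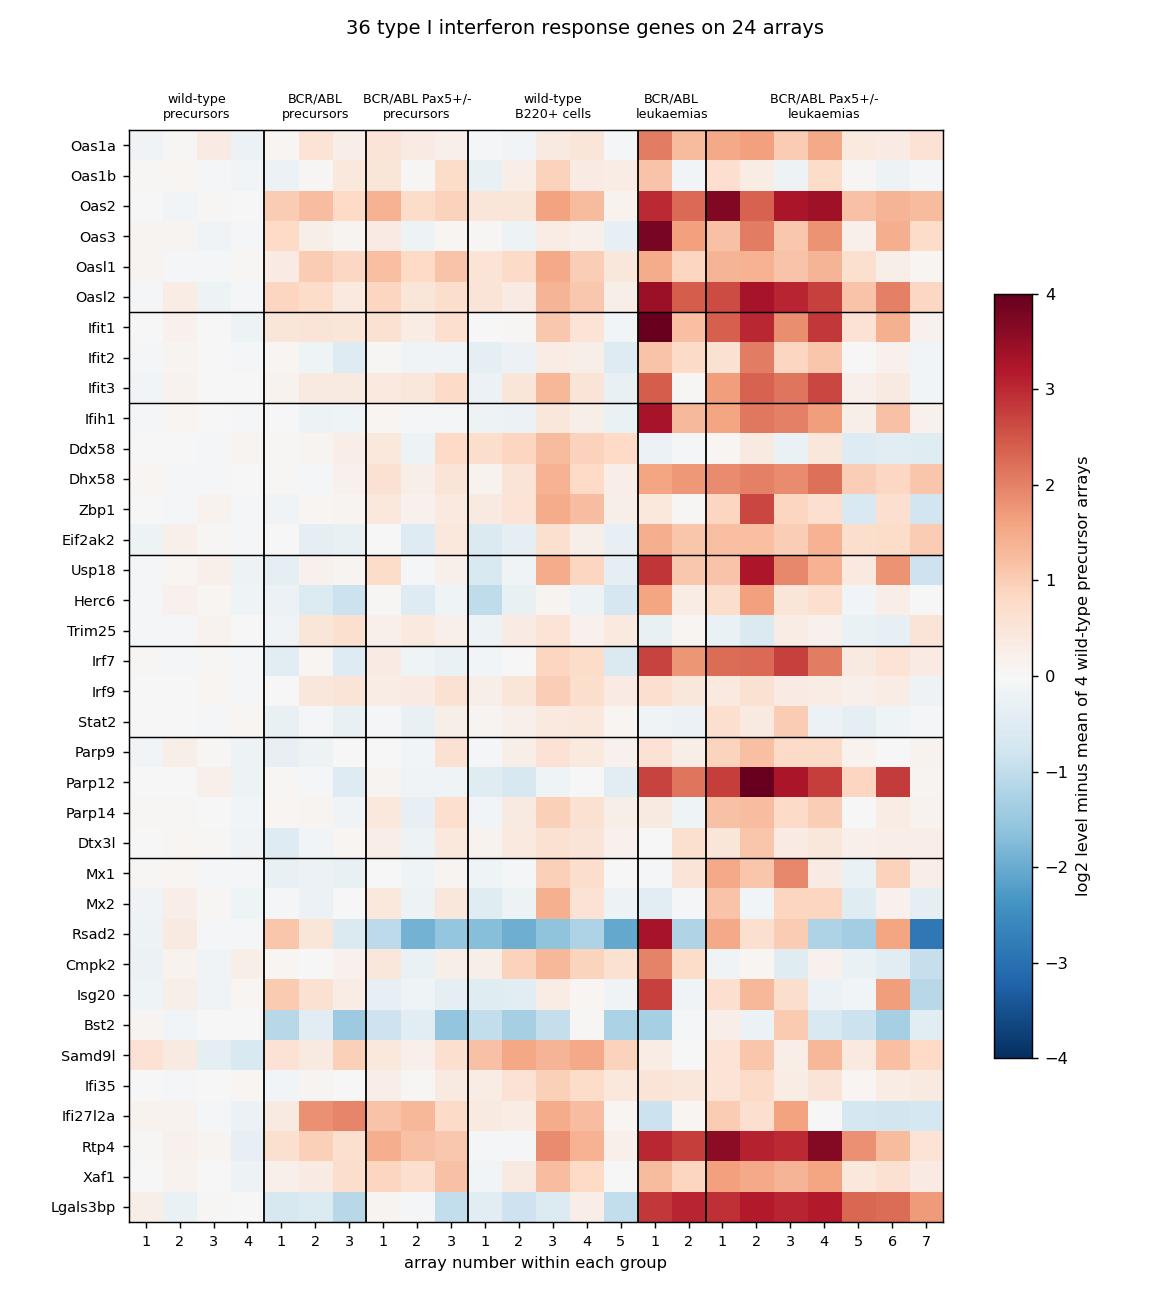
Level of the 36 interferon response genes (rows, ordered by role) on each of the 24 arrays (columns, by group; the groups called Pax5+/- in the text are written BCR/ABL Pax5+/-). Colour gives the log2 intensity minus the gene's mean over the 4 wild-type precursor arrays, with values past 4 in the darkest shade. Lgals3bp and Rtp4 lie above 0 on all 9 leukaemia arrays, and Irf7 and Oas2 are deeper red on arrays 1 to 4 of the Pax5+/- leukaemias and on both BCR/ABL leukaemias than on arrays 5 to 7 of the Pax5+/- leukaemias.

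The mean over the 36 genes separated the arrays within groups as well as between them. It was 9.40, 9.63, 9.39, 9.31, 8.32, 8.75 and 8.17 on the Pax5+/- leukaemias, 9.59 and 8.88 on the BCR/ABL leukaemias, and 8.01, 8.19, 8.89, 8.67 and 8.03 on the B220+ cells. It was 8.45, 8.15 and 8.38 on the Pax5+/- precursors, 8.19, 8.32 and 8.20 on the BCR/ABL precursors, and 8.10, 8.18, 8.11 and 8.02 on the wild-type precursors. Pax5+/- leukaemia arrays 1 to 4 therefore lay above every B220+ and precursor array, whereas arrays 5, 6 and 7 lay within the B220+ range. Single genes did not all follow this split. Array 6 was at 9.75 for Usp18 and, for Isg20, was the highest of the group at 11.42. Among the Pax5+/- leukaemias, array 2 was the highest for 17 of the 36 genes and array 7 the lowest for 17. Among the B220+ cells, array 3 was the highest for 29 genes, compared with 14.7% of all genes.

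**Figure D2:**
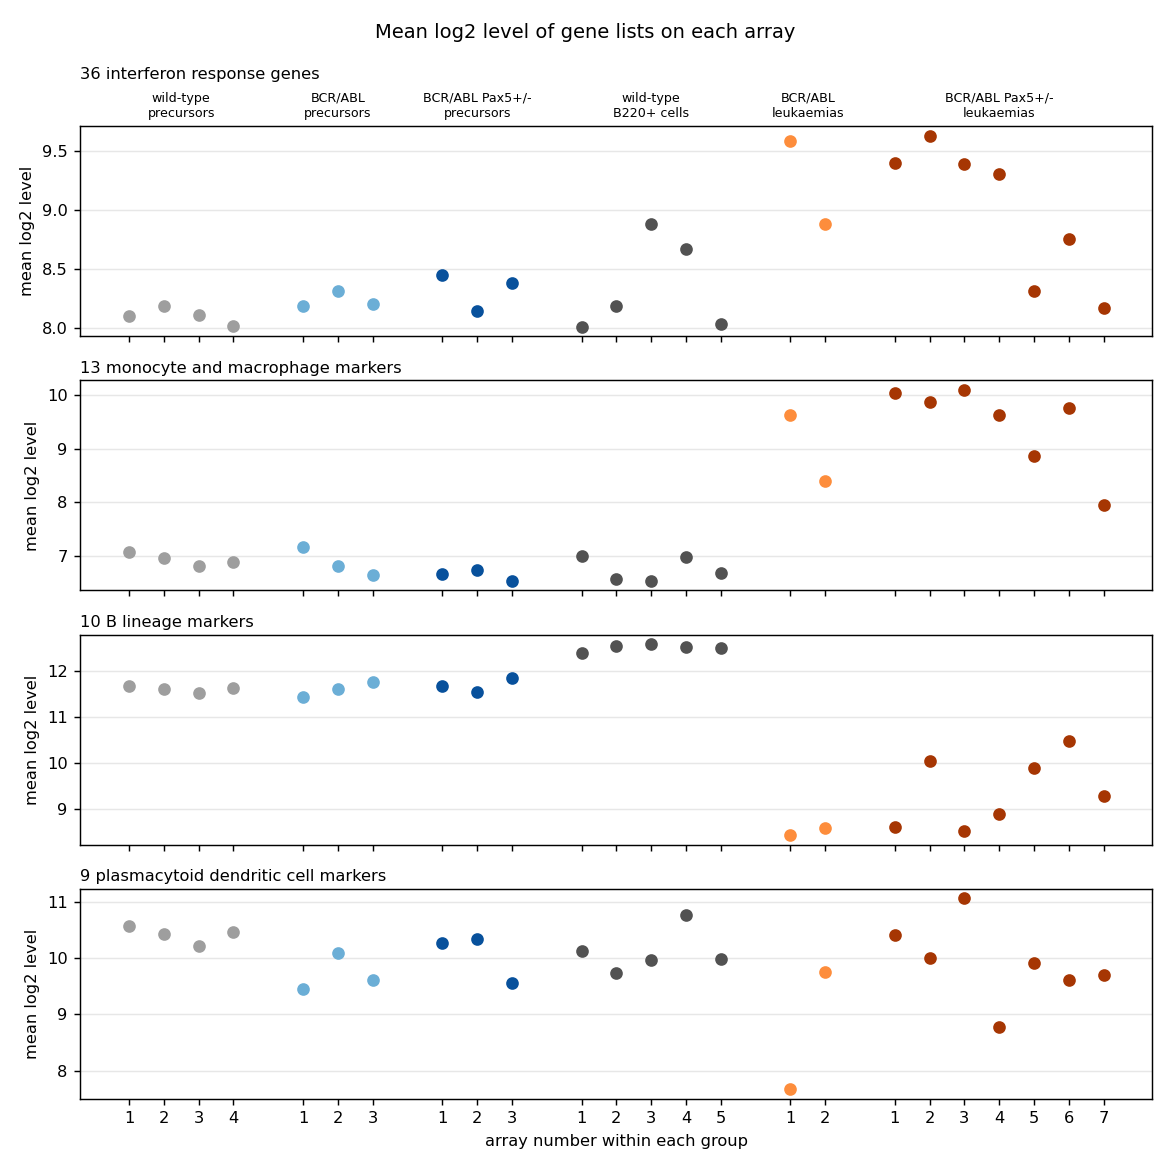
Mean log2 intensity (vertical axes) on each array (horizontal axis, by group) of the 36 members, 13 monocyte and macrophage markers, 10 B lineage markers and 9 plasmacytoid dendritic cell markers. Each point is 1 array. The members' mean reaches 9.63 in the Pax5+/- leukaemias and spans 8.02 to 8.18 in the wild-type precursors.

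Replicates varied more in these genes than in most. The median SD between replicates was 0.61 for the members and 0.17 for all genes in the Pax5+/- leukaemias, 0.43 and 0.14 in the BCR/ABL leukaemias, and 0.43 and 0.11 in the B220+ cells. It was 0.25 and 0.11 in each transgenic precursor group, and 0.12 and 0.0845 in the wild-type precursors. Rsad2 had the widest spread in both leukaemia groups, with an SD of 1.73 and 3.17, and 9 members had an SD over 1 in the Pax5+/- leukaemias, compared with 2.81% of all genes.

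Comparing the Pax5+/- leukaemias with wild-type B220+ cells asks how the response stands in the established disease. Of the 36 genes, 12 were higher and 2 lower, with 12.9% of all genes called higher and 18.9% lower. The median difference was 0.60 over the members and -0.060 over all genes. The secreted glycoprotein Lgals3bp rose most, and RNA sensors, 2'-5' oligoadenylate synthetases and the ADP-ribosyltransferase Parp12 rose with it. Ddx58, the sensor RIG-I, and the mitochondrial nucleotide kinase Cmpk2 fell. The 2 groups of arrays did not overlap for 3 genes in the upward direction (8.65% of all genes) and 2 in the downward direction (11.4%).

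Among the transcription factors, Irf7 was the member that passed. Irf7, which amplifies interferon production, was at 8.38 to 10.77 with a median of 10.10 in the Pax5+/- leukaemias, 10.73 and 9.82 in the BCR/ABL leukaemias, and 7.95, 8.05, 8.89, 8.77 and 7.47 in the B220+ cells. Arrays 1 to 4 of the Pax5+/- leukaemias were above 10, and arrays 5 to 7 were inside the B220+ range. Irf9, the DNA-binding partner of STAT2, was at 9.55 to 10.36 with a median of 10.06 in the Pax5+/- leukaemias, 10.42 and 10.22 in the BCR/ABL leukaemias, and 9.98, 10.24, 10.75, 10.47 and 10.07 in the B220+ cells. The Irf9 groups overlapped and its difference did not pass, nor did that of Stat2.

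Of the 5 RNA and DNA sensors, 3 rose and 1 fell. Ifih1, the sensor MDA5, was at 6.91 to 8.85 with a median of 8.32 in the Pax5+/- leukaemias, 10.02 and 8.03 in the BCR/ABL leukaemias, and 6.53, 6.50, 7.17, 6.97 and 6.47 in the B220+ cells. Ddx58 was at 9.41 to 10.36 with a median of 9.66 in the Pax5+/- leukaemias, 9.69 and 9.85 in the BCR/ABL leukaemias, and 10.62, 10.76, 11.19, 10.82 and 10.71 in the B220+ cells. Every leukaemia array was below every B220+ array for Ddx58. The Ddx58 difference was -1.02 ± 0.18 (SE, adjusted p = 0.000984). Dhx58, the regulator LGP2 of both sensors, was at 8.21 to 9.60 with a median of 9.28 in the Pax5+/- leukaemias, 8.97 and 9.12 in the BCR/ABL leukaemias, and 7.53, 7.92, 8.79, 8.18 and 7.67 in the B220+ cells and differed by 0.94 ± 0.28 (SE, adjusted p = 0.0229). Its groups overlapped through B220+ array 3. Eif2ak2, the kinase PKR that halts translation on double-stranded RNA, was at 8.92 to 9.62 with a median of 9.22 in the Pax5+/- leukaemias, 9.66 and 9.33 in the BCR/ABL leukaemias, and 7.62, 7.85, 8.86, 8.46 and 7.89 in the B220+ cells. Each leukaemia array was above each B220+ array for Eif2ak2, by 1.11 ± 0.20 (SE, adjusted p = 0.00112) on average in the Pax5+/- leukaemias. Zbp1, a sensor of Z-form nucleic acid, was at 7.29 to 10.74 with a median of 8.75 in the Pax5+/- leukaemias, 8.49 and 8.10 in the BCR/ABL leukaemias, and 8.43, 8.61, 9.55, 9.30 and 8.30 in the B220+ cells, with wide overlap, and passed in none of the 12 comparisons.

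The 2'-5' oligoadenylate synthetase family is named for the second messenger that its active members make to turn on RNase L, an activity that mouse Oasl1 lacks. Of the 6 measured, 4 rose, Oas1a, Oas2, Oas3 and Oasl2. Oas2 was at 8.09 to 10.61 with a median of 9.28 in the Pax5+/- leukaemias, 9.90 and 9.17 in the BCR/ABL leukaemias, and 7.38, 7.39, 8.51, 8.16 and 7.05 in the B220+ cells. Oas2 in Pax5+/- leukaemia arrays 1 to 4 was above 9, and arrays 5 to 7 were inside the B220+ range. Oasl2 was at 8.36 to 10.80 with a median of 10.12 in the Pax5+/- leukaemias, 10.94 and 9.96 in the BCR/ABL leukaemias, and 8.04, 7.85, 8.89, 8.60 and 7.74 in the B220+ cells and differed by 1.53 ± 0.43 (SE, adjusted p = 0.0165). Oas1a was at 7.63 to 8.93 with a median of 8.31 in the Pax5+/- leukaemias, 9.32 and 8.57 in the BCR/ABL leukaemias, and 7.22, 7.16, 7.64, 7.78 and 7.21 in the B220+ cells and differed by 0.88 ± 0.26 (SE, adjusted p = 0.0225). Both overlapped the upper B220+ arrays. Oas1b and Oasl1 did not pass in this comparison, and Oas1b passed in none.

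The 3 Ifit genes, whose proteins bind foreign RNA at its 5' end or the translation machinery, had differences of 0.79 to 1.45 and none passed. Ifit1 was at 6.11 to 8.94 with a median of 7.78 in the Pax5+/- leukaemias, 10.11 and 7.14 in the BCR/ABL leukaemias, and 5.93, 5.97, 7.001, 6.47 and 5.81 in the B220+ cells. Ifit3 was at 6.25 to 9.01 with a median of 8.02 in the Pax5+/- leukaemias, 8.77 and 6.41 in the BCR/ABL leukaemias, and 6.12, 6.83, 7.66, 6.86 and 6.06 in the B220+ cells. For both, Pax5+/- leukaemia arrays 1 to 4 were above the B220+ cells, and arrays 5 to 7 were inside their range except array 6 for Ifit1, which was above it.

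In the ISG15 system, Herc6, the mouse ligase that attaches ISG15, passed, while its protease Usp18 and the ligase Trim25 did not. Usp18, which also dampens the receptor, was at 7.13 to 11.20 with a median of 9.36 in the Pax5+/- leukaemias, 10.80 and 9.04 in the BCR/ABL leukaemias, and 7.34, 7.82, 9.43, 8.82 and 7.56 in the B220+ cells. Its Pax5+/- leukaemia values covered the whole B220+ range. Among the ADP-ribosylation genes, Parp12 was at 7.12 to 10.99 with a median of 9.80 in the Pax5+/- leukaemias, 9.72 and 9.16 in the BCR/ABL leukaemias, and 6.54, 6.37, 6.84, 7.02 and 6.57 in the B220+ cells and differed by 2.71 ± 0.56 (SE, adjusted p = 0.00279). Each leukaemia array was above each B220+ array for Parp12. Parp9, Parp14 and Dtx3l, which lie side by side and of which Parp9 and Dtx3l form a complex, did not pass, with differences of 0.29, 0.24 and 0.08.

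**Figure D3:**
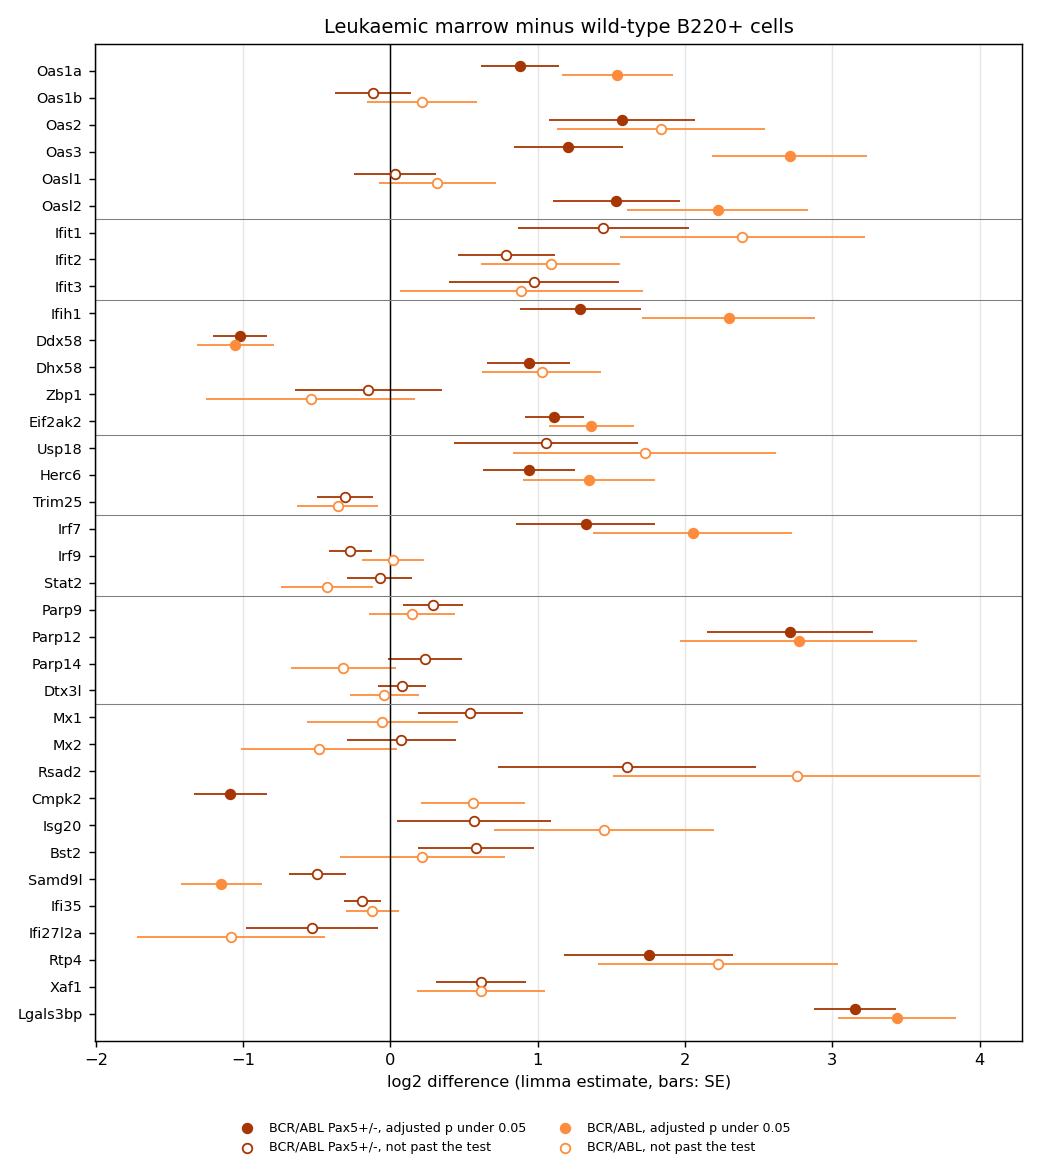
Log2 difference of each member with its standard error (horizontal axis) in the comparisons of the leukaemias with B220+ cells, dark for Pax5+/- and light for BCR/ABL leukaemias. Filled points passed the adjusted p threshold. Lgals3bp, at 3.15 and 3.44, is the largest difference, and Ddx58 lies below 0 in both comparisons with B220+ cells.

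Of the 12 other effectors, Lgals3bp and Rtp4 rose and Cmpk2 fell. Lgals3bp was at 9.9999 to 11.48 with a median of 11.21 in the Pax5+/- leukaemias, 11.14 and 11.34 in the BCR/ABL leukaemias, and 7.89, 7.48, 7.74, 8.55 and 7.32 in the B220+ cells and differed by 3.15 ± 0.28 (SE, adjusted p = 6.4e-06). All 9 leukaemia arrays were above all 5 B220+ arrays. Rtp4, a chaperone that restricts flaviviruses, was at 7.39 to 10.52 with a median of 9.85 in the Pax5+/- leukaemias, 9.87 and 9.63 in the BCR/ABL leukaemias, and 6.80, 6.82, 8.73, 8.23 and 7.05 in the B220+ cells, with Pax5+/- leukaemia arrays 5 to 7 inside the B220+ range. Cmpk2 was at 7.03 to 8.11 with a median of 7.68 in the Pax5+/- leukaemias, 9.94 and 8.70 in the BCR/ABL leukaemias, and 8.20, 8.88, 9.28, 8.84 and 8.57 in the B220+ cells. The Pax5+/- leukaemias were all below the B220+ cells for Cmpk2, with a difference of -1.09 ± 0.25 (SE, adjusted p = 0.00499). Rsad2, the antiviral enzyme viperin encoded beside Cmpk2, was at 6.87 to 11.34 with a median of 10.38 in the Pax5+/- leukaemias, 13.04 and 8.56 in the BCR/ABL leukaemias, and 8.06, 7.80, 8.14, 8.51 and 7.69 in the B220+ cells. Its Pax5+/- leukaemia values ran from below the B220+ cells to far above them, and its difference did not pass. The tetherin gene Bst2, the Mx GTPases Mx1 and Mx2, the exonuclease Isg20, Samd9l, Ifi35, Ifi27l2a and Xaf1 did not pass either.

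Removing B220+ array 1, 2 or 5 left 5, 4 or 4 members higher, and removing Pax5+/- leukaemia array 1, 3 or 4 left 7 each. The calls of Oas1a and Dhx58 ended without B220+ array 1, 2 or 5 (adjusted p from 0.0534 to 0.0632), that of Dhx58 also on female arrays alone (adjusted p = 0.055), and that of Cmpk2 with the replicate number as a block (adjusted p = 0.0632). Marker genes moved in the same comparison: 11 of 13 monocyte and macrophage markers, 10 of 11 stromal and endothelial markers and 5 of 6 megakaryocyte markers were higher, and 10 of 10 B lineage markers were lower. The monocyte and macrophage markers averaged 10.03, 9.86, 10.09, 9.62, 8.86, 9.75 and 7.94 on the 7 Pax5+/- leukaemias, and their summed intensity was 8272 to 19069.5 against 1576 to 5841 in the B220+ cells. The summed intensity of the B lineage markers was 6785 to 19088 against 58521 to 66786. Their part in the result was not tested.

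The comparison of the BCR/ABL leukaemias with the same B220+ cells rests on 2 leukaemias and shares its controls with the comparison above. Of the 36 genes, 9 were higher and 2 lower, with 9.48% of all genes called higher and 11.9% lower. Over the members the median difference was 0.75, against -0.073 over all genes. The groups did not overlap in 15 members upward (16.9% of all genes) and 3 downward (26.6%). Lgals3bp differed by 3.44 ± 0.40 (SE, adjusted p = 0.000113). Oas3, a synthetase that responds to long double-stranded RNA, differed by 2.71 ± 0.53 (SE, adjusted p = 0.00313), from levels of 10.55 and 8.39 in the BCR/ABL leukaemias, and 6.81, 6.56, 7.05, 6.97 and 6.42 in the B220+ cells. Array 1 was by far the higher of the 2 leukaemias for Oas3. Eif2ak2 differed by 1.36 ± 0.29 (SE, adjusted p = 0.00515), Oas1a by 1.54 ± 0.38 (SE, adjusted p = 0.0116), Ifih1 by 2.29 ± 0.59 (SE, adjusted p = 0.015) and Oasl2 by 2.22 ± 0.61 (SE, adjusted p = 0.0219). Parp12, Irf7 and Herc6 were the other members that rose. Samd9l, a translation inhibitor tied to myeloid disease when mutated, was at 9.64 to 10.70 with a median of 10.16 in the Pax5+/- leukaemias, 9.65 and 9.38 in the BCR/ABL leukaemias, and 10.55, 10.90, 10.72, 10.86 and 10.29 in the B220+ cells. The BCR/ABL leukaemias were below every B220+ array for Samd9l (-1.15 ± 0.27 (SE, adjusted p = 0.0105)). Ddx58 fell as well (-1.05 ± 0.26 (SE, adjusted p = 0.0123)).

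BCR/ABL leukaemia array 1 carried much of this result. It was above array 2 for 27 of the 36 genes, compared with 47.8% of all genes, and the gap was widest for Rsad2, at 13.04 against 8.56. Without array 1, 1 member was higher and 1 lower, with the remaining leukaemia assumed to vary like the other groups. Without array 2, 1 member was lower. Weighting arrays by their residual spread left 2 higher and 0 lower, and a fit over all 24 arrays gave 14 higher. Without array 1 the adjusted p was 0.0672 for Oas3, 0.0668 for Eif2ak2, 0.154 for Oas1a, 0.1 for Ddx58, 0.248 for Ifih1 and 0.206 for Oasl2, and without array 2 it was 0.0666 for Samd9l. The 6 erythroid markers averaged 12.25 on array 1 and 8.95 on array 2, with a summed intensity of 39611 and 6029.5. Array 1 was also the higher for megakaryocyte (10.59 and 8.98), stromal and endothelial (9.63 and 8.49) and monocyte and macrophage markers (9.62 and 8.40). The same held for neutrophil (12.17 and 11.59) and T cell markers (7.49 and 7.36). It was the lower for plasmacytoid dendritic cell (7.67 and 9.74), B lineage (8.44 and 8.61) and NK cell markers (6.87 and 7.12). In this comparison 8 of 14 neutrophil markers, 8 of 13 monocyte and macrophage markers and 9 of 11 stromal and endothelial markers were higher than in the B220+ cells. Their part in the result was not tested.

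Setting the 7 Pax5+/- leukaemias against the 2 BCR/ABL leukaemias asks what the loss of a Pax5 copy adds in the disease. No member was higher and 1 was lower by limma, with 0.712% of all genes called higher and 1.16% lower. At an unadjusted p under 0.05, 1 was higher and 2 lower. Over the list the median was -0.26, against 0.015 over all genes, and 14 of the 36 differences were positive. Cmpk2 differed by -1.65 ± 0.34 (SE, adjusted p = 0.0261). Its levels did not overlap, 7.03 to 8.11 in the Pax5+/- leukaemias and 9.94 and 8.70 in the BCR/ABL leukaemias. The call ended without BCR/ABL leukaemia array 1 (adjusted p = 0.36), with array weights (adjusted p = 0.312) and with the replicate block (adjusted p = 0.251). Isg20, an exonuclease of single-stranded RNA, was at 8.66 to 11.42 with a median of 10.44 in the Pax5+/- leukaemias, and 12.50 and 9.63 in the BCR/ABL leukaemias. The Isg20 values overlapped and it did not pass. In this comparison 7 of 14 neutrophil markers were lower, at a mean of 7.26 to 9.98 in the Pax5+/- leukaemias and of 12.17 and 11.59 in the BCR/ABL leukaemias. Their part in the result was not tested.

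**Figure D4:**
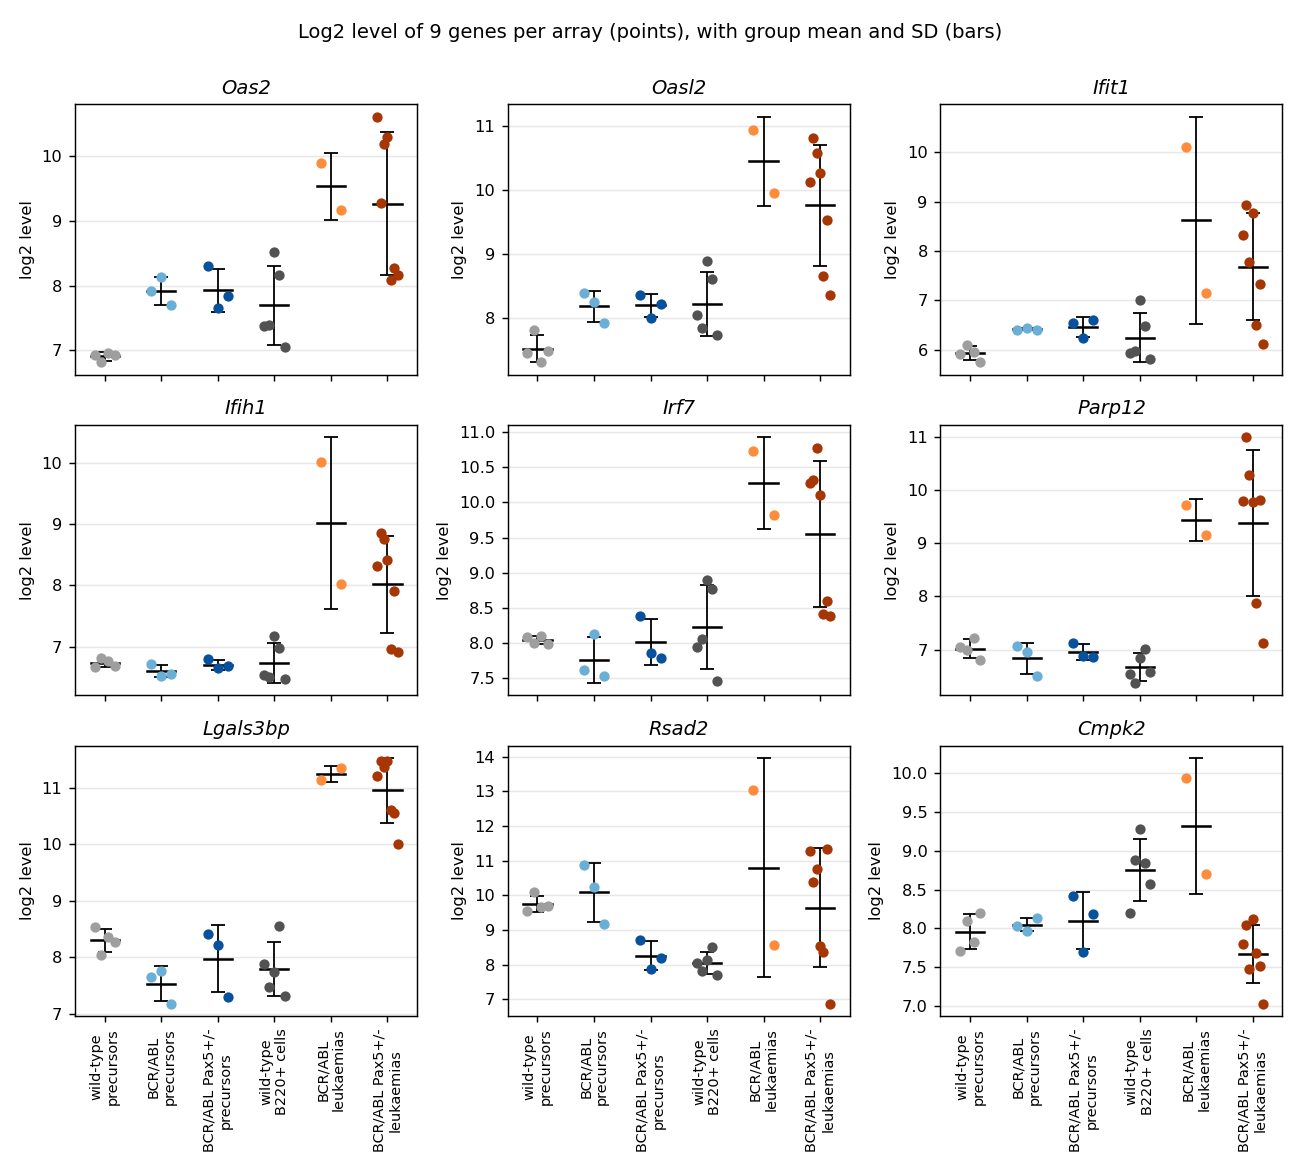
Log2 intensity (vertical axes) of 9 members by group, with 1 point per array, a long bar at the group mean and whiskers of 1 SD. Pax5+/- leukaemia arrays split into a higher and a lower set for several genes, while the wild-type precursors lie close together. Which arrays are high changes with the gene. Array 6 is at 9.81 for Parp12 and is the highest for Rsad2, at 11.34, where array 4 is at 8.53.

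Comparing preleukaemic precursors with wild-type precursors asks whether the response differs before disease. In the Pax5+/- precursors 8 members were higher and 1 lower, with 1.23% of all genes called higher and 2.94% lower. The median difference was 0.25 over the members and 0.029 over all genes. The genes that rose were 3 synthetase family members (Oas2, Oasl1, Oasl2), 2 Ifit genes (Ifit1, Ifit3), the sensor regulator Dhx58, and Rtp4 and Xaf1. The differences ranged from 0.45 to 1.24. No transcription factor, ISG15 system or ADP-ribosylation gene passed. The groups did not overlap in 12 members upward (12.3% of all genes) and 2 downward (12%).

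Rtp4 was at 8.32, 8.03 and 7.95 in the Pax5+/- precursors, 7.50, 7.79 and 7.48 in the BCR/ABL precursors, and 6.90, 7.03, 6.97 and 6.52 in the wild-type precursors. Each transgenic precursor array was above each wild-type array, and the Pax5+/- precursors differed by 1.24 ± 0.14 (SE, adjusted p = 0.00717). Oas2 was at 8.30, 7.65 and 7.83 in the Pax5+/- precursors, 7.92, 8.14 and 7.71 in the BCR/ABL precursors, and 6.92, 6.81, 6.96 and 6.93 in the wild-type precursors and differed by 1.02 ± 0.15 (SE, adjusted p = 0.0143). Oasl1, which can restrain translation of Irf7, was at 8.91, 8.50 and 8.86 in the Pax5+/- precursors, 8.04, 8.73 and 8.53 in the BCR/ABL precursors, and 7.81, 7.62, 7.65 and 7.75 in the wild-type precursors, a difference of 1.05 ± 0.16 (SE, adjusted p = 0.0143) in the Pax5+/- precursors. For these genes no transgenic array overlapped the wild-type arrays. Xaf1, an antagonist of the apoptosis inhibitor XIAP, was at 8.63, 8.42 and 8.92 in the Pax5+/- precursors, 7.96, 8.07 and 8.47 in the BCR/ABL precursors, and 7.77, 7.91, 7.78 and 7.56 in the wild-type precursors and differed by 0.90 ± 0.15 (SE, adjusted p = 0.0181). Oasl2 was at 8.36, 8.004 and 8.22 in the Pax5+/- precursors, 8.39, 8.25 and 7.92 in the BCR/ABL precursors, and 7.46, 7.82, 7.32 and 7.48 in the wild-type precursors and differed by 0.68 ± 0.14 (SE, adjusted p = 0.0361). The wild-type arrays were the lowest for both.

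Ifit3 was at 6.73, 6.81 and 7.10 in the Pax5+/- precursors, 6.50, 6.71 and 6.72 in the BCR/ABL precursors, and 6.23, 6.47, 6.34 and 6.35 in the wild-type precursors, with a difference of 0.53 ± 0.10 (SE, adjusted p = 0.0271) in the Pax5+/- precursors. Ifit1 was at 6.53, 6.23 and 6.60 in the Pax5+/- precursors, 6.40, 6.43 and 6.41 in the BCR/ABL precursors, and 5.92, 6.10, 5.96 and 5.74 in the wild-type precursors and differed by 0.52 ± 0.10 (SE, adjusted p = 0.0288). Every transgenic array was above every wild-type array for both. Dhx58 was at 7.996, 7.63 and 7.92 in the Pax5+/- precursors, 7.43, 7.32 and 7.56 in the BCR/ABL precursors, and 7.47, 7.34, 7.35 and 7.41 in the wild-type precursors and differed by 0.45 ± 0.094 (SE, adjusted p = 0.0333), and its BCR/ABL precursor values overlapped the wild-type values. Irf7 was at 8.38, 7.87 and 7.78 in the Pax5+/- precursors, 7.62, 8.14 and 7.53 in the BCR/ABL precursors, and 8.09, 8.003, 8.10 and 7.99 in the wild-type precursors and did not pass. Rsad2 is named although it is ninth by adjusted p, because it is the member that fell. Rsad2 was at 8.70, 7.87 and 8.19 in the Pax5+/- precursors, 10.87, 10.23 and 9.17 in the BCR/ABL precursors, and 9.55, 10.10, 9.66 and 9.69 in the wild-type precursors. Every Pax5+/- precursor was below every wild-type and BCR/ABL precursor for Rsad2, with a difference of -1.49 ± 0.35 (SE, adjusted p = 0.0465) against wild type, and its call ended when any 1 array was left out (adjusted p from 0.0582 to 0.132).

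These calls depended on the fit. In a fit over all 24 arrays, whose pooled spread takes in the leukaemias, 0 members passed in either direction. With the replicate number as a block 3 were higher and 0 lower, and with array weights 19 were higher and 2 lower. Without wild-type array 1, 2, 3 or 4, the number higher was 3, 1, 1 or 4, and without Pax5+/- precursor array 1 it was 5. Under leave-one-out the adjusted p of Rtp4 passed throughout, whereas that of Oas2 and Oasl1 reached 0.0579, and that of Xaf1, Ifit3, Ifit1, Dhx58 and Oasl2 reached 0.0623, 0.0832, 0.0858, 0.1 and 0.105. In the same comparison 3 of 9 NK cell markers were lower, with a mean of 7.20, 7.67 and 6.77 in the Pax5+/- precursors against 8.58, 8.17, 8.08 and 7.88 in the wild-type precursors, and a summed intensity of 1229 to 3181 against 3215 to 5565. Alas2, 1 of 6 erythroid markers, was lower too (-1.19). Neutrophil markers averaged 7.37, 7.76 and 7.47 on the Pax5+/- precursors and 9.40, 9.19, 7.39 and 7.36 on the wild-type precursors. Their part in the result was not tested.

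In the BCR/ABL precursors, set against the same wild-type arrays, 7 members were higher and 4 lower, with 11.6% of all genes called higher and 15.5% lower. The median difference was 0.058, near the 0.037 of all genes, and it was 0.23 after a further quantile normalisation. The groups did not overlap in 10 members upward (19.3% of all genes) and 4 downward (22.9%). Oas2 rose by 1.01 ± 0.15 (SE, adjusted p = 0.00387), Rtp4 by 0.74 ± 0.14 (SE, adjusted p = 0.00782), Oasl1 by 0.73 ± 0.16 (SE, adjusted p = 0.0117), Oasl2 by 0.66 ± 0.14 (SE, adjusted p = 0.0122) and Ifit1 by 0.48 ± 0.10 (SE, adjusted p = 0.0113). The values of the same 5 genes in the Pax5+/- precursors stand above, and both comparisons use the same wild-type arrays. Ifi27l2a, which encodes a small interferon-induced membrane protein, was at 10.05, 10.27 and 9.70 in the Pax5+/- precursors, 9.28, 10.75 and 10.89 in the BCR/ABL precursors, and 9.07, 9.05, 8.87 and 8.70 in the wild-type precursors. Ifi27l2a was above wild type on every transgenic array and differed by 1.38 ± 0.34 (SE, adjusted p = 0.0175) in the BCR/ABL precursors. Isg20 was at 9.43, 9.59 and 9.38 in the Pax5+/- precursors, 10.79, 10.37 and 10.06 in the BCR/ABL precursors, and 9.59, 9.998, 9.61 and 9.84 in the wild-type precursors, a difference of 0.65 ± 0.16 (SE, adjusted p = 0.0198) in the BCR/ABL precursors.

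The GTPase Mx1, which blocks influenza virus, was at 6.57, 6.39 and 6.67 in the Pax5+/- precursors, 6.27, 6.36 and 6.28 in the BCR/ABL precursors, and 6.63, 6.66, 6.48 and 6.53 in the wild-type precursors and differed by -0.28 ± 0.077 (SE, adjusted p = 0.0279) in the BCR/ABL precursors. The other members that fell, outside the 8 smallest adjusted p-values, are named although they were chosen after their values were seen. Bst2, which tethers budding virions and marks plasmacytoid dendritic cells, was at 8.85, 9.27 and 8.11 in the Pax5+/- precursors, 8.58, 9.25 and 8.22 in the BCR/ABL precursors, and 9.80, 9.59, 9.67 and 9.68 in the wild-type precursors. The wild-type arrays were all above the transgenic arrays for Bst2. Lgals3bp was at 8.41, 8.21 and 7.31 in the Pax5+/- precursors, 7.66, 7.76 and 7.19 in the BCR/ABL precursors, and 8.54, 8.04, 8.36 and 8.28 in the wild-type precursors, and Herc6 at 8.61, 8.03 and 8.39 in the Pax5+/- precursors, 8.32, 8.01 and 7.72 in the BCR/ABL precursors, and 8.49, 8.73, 8.64 and 8.38 in the wild-type precursors. For both, the BCR/ABL precursors were below the wild-type arrays. The lower count was 1 in place of 4 under a further quantile normalisation, cyclic loess or the replicate block, and it was 0 without BCR/ABL precursor array 3 or wild-type array 1 or 2, 1 without wild-type array 3, and 2 without BCR/ABL precursor array 1 or 2.

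**Figure D5:**
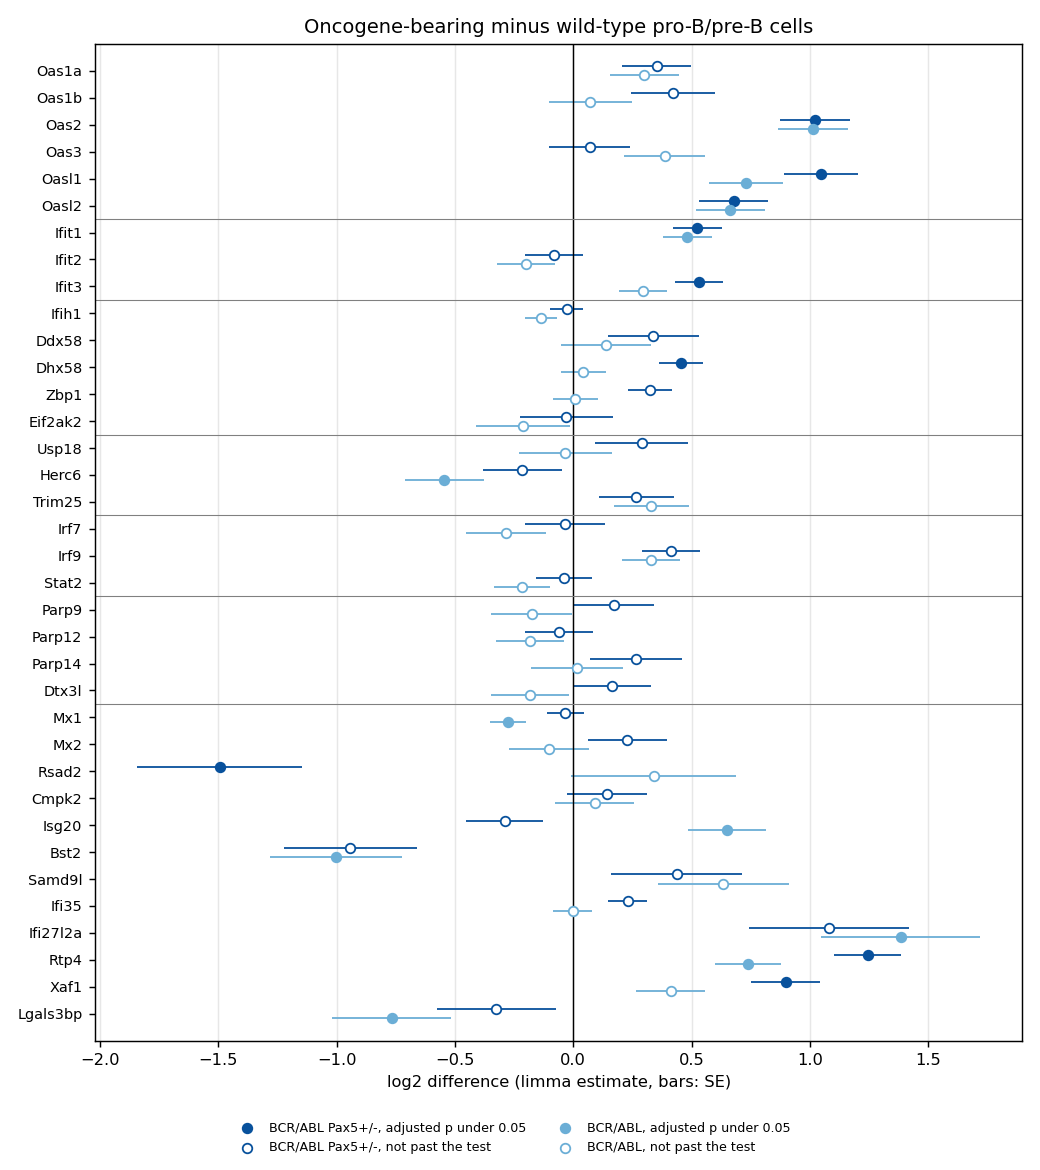
Log2 difference of each member with its standard error (horizontal axis) in the comparisons with wild-type precursors, dark for Pax5+/- and light for BCR/ABL precursors. Filled points passed the adjusted p threshold. Rtp4, Oas2, Oasl1, Oasl2 and Ifit1 lie above 0 in both comparisons with wild-type precursors, and Rsad2 lies at -1.49 in the Pax5+/- precursors.

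Without BCR/ABL precursor array 1 the number of members higher was 11, and array weights also gave 11. The fit over all 24 arrays gave 0 in either direction. The calls of Ifi27l2a ended without BCR/ABL precursor array 2 (adjusted p = 0.0642) or 3 (0.0698), those of Isg20 without BCR/ABL precursor array 2 (0.0501) or wild-type array 1 (0.054) or 3 (0.0575), and those of Mx1 without BCR/ABL precursor array 1 or 3, wild-type array 1 or 2 (0.057 to 0.0877), and with the block (0.0679). In this comparison 7 of 9 NK cell markers were lower, at a mean of 6.62, 7.46 and 6.39 against 7.88 to 8.58 in the wild-type precursors and a summed intensity of 982 to 2589 against 3215 to 5565. Of the 9 plasmacytoid dendritic cell markers 1 was higher and 3 lower, with a mean of 9.46, 10.09 and 9.62 against 10.21 to 10.57. Erythroid markers averaged 9.95, 9.16 and 9.04 on the BCR/ABL precursors, 8.81, 8.52 and 8.75 on the Pax5+/- precursors and 9.20 to 9.52 on the wild-type precursors. Neutrophil markers averaged 10.77, 7.85 and 7.50 on the BCR/ABL precursors and 9.40, 9.19, 7.39 and 7.36 on the wild-type precursors. Rsad2 stood at 10.87, 10.23 and 9.17 on the same BCR/ABL precursor arrays. Their part in the result was not tested.

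Between the Pax5+/- and the BCR/ABL precursors, limma called 0 members in either direction, with 0.015% of all genes called higher and 0.01% lower. At an unadjusted p under 0.05, 6 members were higher and 2 lower, with no share of all genes worked out at that threshold. The median difference over the members was 0.19, against -3.1e-05 over all genes. Of the 36 differences, 30 were positive. Members tended to shift together on an array, so these counts do not test the Pax5 copy. The smallest adjusted p belonged to Isg20, at -0.94 ± 0.17 (SE, adjusted p = 0.144), and the size was largest for Rsad2, at -1.83 ± 0.37 (SE, adjusted p = 0.149), for which the 3 Pax5+/- values were all below the 3 BCR/ABL values. The same-numbered arrays of these groups deviated together, though no label pairs them. With the replicate number as a block the count was again 0 in either direction. Array weights gave 1 higher and 1 lower, and 1 was higher without Pax5+/- precursor array 2. The difference of the Pax5 copy effect between leukaemias and precursors, an interaction fitted over all 24 arrays, passed for 0 members by limma, against 0.226% of all genes higher and 0.466% lower. At an unadjusted p under 0.05, 0 were higher and 1 lower. Cmpk2 came nearest, at -1.70 ± 0.42 (SE, adjusted p = 0.0637). Without BCR/ABL leukaemia array 2, 2 members were lower in this interaction, and without Pax5+/- precursor array 2, 1.

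Leukaemias were also set against precursors of their own genotype, a comparison of marrow for which no sort is named with proB and preB cells. In the Pax5+/- mice 10 members were higher and 0 lower in the leukaemias, with 16.4% of all genes called higher and 28.4% lower (unadjusted p under 0.05: 15 higher and 1 lower). Lgals3bp led at 2.97 ± 0.31 (SE, adjusted p = 5.4e-07), followed by Eif2ak2 at 1.06 ± 0.23 (SE, adjusted p = 0.00102), Parp12 at 2.43 ± 0.54 (SE, adjusted p = 0.00141) and Dhx58 at 1.11 ± 0.27 (SE, adjusted p = 0.00293). Oasl2, Ifih1, Irf7 and Oas3 followed at 1.56, 1.31, 1.54 and 1.15. The count was 16 without Pax5+/- leukaemia array 7, 18 with array weights and 19 with the replicate block. The Irf7 call ended in a fit on these groups alone (adjusted p = 0.0633) and that of Oas3 without Pax5+/- precursor array 2 (adjusted p = 0.0728). All 13 monocyte and macrophage markers and 10 of 11 stromal and endothelial markers were higher in the same comparison, and 9 of 10 B lineage markers were lower. In the BCR/ABL mice 17 were higher and 1 lower, with 18.1% of all genes called higher and 27.6% lower. Lgals3bp differed by 3.70 ± 0.41 (SE, adjusted p = 2.3e-06), Eif2ak2 by 1.496 ± 0.30 (SE, adjusted p = 0.000678), Oas3 by 2.33 ± 0.48 (SE, adjusted p = 0.00087) and Ifih1 by 2.43 ± 0.51 (SE, adjusted p = 0.00111). The member that fell was Ifi27l2a, at -1.77 ± 0.62 (SE, adjusted p = 0.0261), and the number higher was 6 without BCR/ABL leukaemia array 1 and 4 with array weights. The Ifi27l2a call ended without BCR/ABL leukaemia array 1 or BCR/ABL precursor array 2 or 3, with array weights and in a fit on these groups alone (adjusted p from 0.0815 to 0.202). The calls of Oas3 and Ifih1 ended in the fit on these groups alone (adjusted p = 0.0828 and 0.0616), that of Ifih1 also without BCR/ABL leukaemia array 1 (0.0517), and that of Eif2ak2 with array weights (0.0643). Of the markers, 9 of 13 for monocytes and macrophages and 7 of 14 for neutrophils were higher, and 9 of 10 for the B lineage were lower. What these markers had to do with either result was not tested.

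Against the wild-type precursors the Pax5+/- leukaemias had 21 members higher and 0 lower, with 12.7% of all genes called higher and 19.6% lower. At an unadjusted p under 0.05 these were 23 and 0 by limma. All 4 ADP-ribosylation genes and 5 of 6 synthetase family members were among them. Dhx58 differed by 1.56 ± 0.25 (SE, adjusted p = 7.8e-05), Oasl2 by 2.24 ± 0.38 (SE, adjusted p = 0.00016), Oas2 by 2.36 ± 0.43 (SE, adjusted p = 0.000349) and Rtp4 by 2.43 ± 0.50 (SE, adjusted p = 0.000946). The BCR/ABL leukaemias had 17 higher and 0 lower (20 and 0 at an unadjusted p under 0.05 by limma), with 9.36% of all genes called higher and 12% lower. Oas3 differed by 2.72 ± 0.45 (SE, adjusted p = 0.000291), Oasl2 by 2.93 ± 0.52 (SE, adjusted p = 0.000527) and Oas1a by 1.65 ± 0.33 (SE, adjusted p = 0.00141). The number higher was 4 without BCR/ABL leukaemia array 1, where the Oas1a call ended (adjusted p = 0.0511), as it did with array weights (0.0522). Monocyte and macrophage markers were higher in both comparisons (10 and 9 of 13) and B lineage markers lower (9 and 10 of 10), and their part in the result was not tested. In both leukaemia groups Lgals3bp was more than 2 log2 units above the wild-type precursors (2.65 and 2.94).

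Wild-type B220+ cells and wild-type precursors, the control groups, differed in part of the list themselves. By limma 5 members were higher in the B220+ cells and 0 lower (7 and 1 at an unadjusted p under 0.05), with 4.57% of all genes called higher and 4.26% lower. Their median difference was 0.30. Samd9l differed by 1.30 ± 0.24 (SE, adjusted p = 0.00146), Ifi35 by 0.60 ± 0.12 (SE, adjusted p = 0.00304), Ddx58 by 0.91 ± 0.20 (SE, adjusted p = 0.00582), Irf9 by 0.55 ± 0.15 (SE, adjusted p = 0.0261) and Cmpk2 by 0.80 ± 0.25 (SE, adjusted p = 0.0489). Ddx58, at 9.85 to 10.04 on the wild-type precursors, was at 10.62 to 11.19 on the B220+ cells, whereas the leukaemias, at 9.41 to 10.36, overlapped the precursors. The count was 3 without B220+ array 3 or 4 or wild-type precursor array 1, 2 or 4, 16 with array weights, 11 in a fit on these groups alone and 8 with the replicate block. The Cmpk2 call ended with the replicate block (adjusted p = 0.0525) and without any 1 array other than B220+ array 1 (0.0621 to 0.146), and the Irf9 call ended without B220+ array 3 or 4 or wild-type precursor array 1, 2 or 4 (0.0626 to 0.0811). NK cell markers averaged 6.61 to 7.53 on the B220+ cells against 7.88 to 8.58 on the wild-type precursors (2 of 9 lower), and erythroid markers 8.59 to 8.90 against 9.20 to 9.52 (1 of 6 lower), with no overlap in either list, and 3 of 10 B lineage markers were higher; the part of these markers in the result was not tested.

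Across the 12 comparisons, many of which share arrays, Oasl2 was higher in 8 and Oas2 in 7. Mx2, Oas1b, Stat2, Trim25 and Zbp1 passed in none. Bst2 and Rsad2 passed in 1 each, and in both as a fall.

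Genes around the response were read from lists that hold no member. Of the 22 measured genes upstream of it (interferons, receptors, adaptors and factors), 5 were higher and 5 lower in the Pax5+/- leukaemias against B220+ cells (22.7% each way, against 12.9% higher and 18.9% lower of all genes). The endosomal RNA receptor Tlr7 rose by 2.48 ± 0.42 (SE, adjusted p = 0.000715), while the interferon-inducing factor Irf3 differed by -0.65 ± 0.092 (SE, adjusted p = 0.000204) and the signalling ligase Traf6 by -0.86 ± 0.14 (SE, adjusted p = 0.000587). Ikbke, a kinase of Irf3 and Irf7, rose by 1.08 ± 0.19 (SE, adjusted p = 0.0011). In the BCR/ABL leukaemias 3 of the 22 were higher and 4 lower (13.6% and 18.2%, against 9.48% and 11.9% of all genes). The DNA receptor Tlr9 differed by -3.02 ± 0.36 (SE, adjusted p = 0.00013) and Irf5 by -2.23 ± 0.36 (SE, adjusted p = 0.000934), and Tlr9 was the 1 upstream gene that differed between the leukaemias (1.84 ± 0.35 (SE, adjusted p = 0.0163)). Tlr9 is also among the plasmacytoid dendritic cell markers. B lineage markers averaged 8.44 and 8.61 in the BCR/ABL leukaemias against 12.39 to 12.58 in the B220+ cells. Monocyte and macrophage markers averaged 7.94 to 10.09 in the Pax5+/- leukaemias and 6.54 to 6.99 in the B220+ cells. Which cells the differences of Tlr9, Tlr7 and the other upstream genes came from was not tested. The interferon beta gene Ifnb1 lay between 4.97 and 5.57 on all 24 arrays and did not pass in any transgenic group against the wild-type B220+ cells or precursors. It was lower in each leukaemia group than in the precursors of the same genotype (-0.19 and -0.22). These are small differences at a low intensity, as all deposited values ran from 3.8 to 14.31. In the BCR/ABL precursors 2 of the 22 were higher and 4 lower than in wild type (9.09% and 18.2%, against 11.6% and 15.5% of all genes). The lower genes included Ikbke (-0.55 ± 0.091 (SE, adjusted p = 0.00539)), Tlr7 (-1.54 ± 0.33 (SE, adjusted p = 0.0111)) and the receptor chain Ifnar2 (-0.53 ± 0.11 (SE, adjusted p = 0.0116)), while Ifna2 rose (0.43 ± 0.089 (SE, adjusted p = 0.0106)). Ifna2 was also at a low intensity, 6.53 to 6.59 in the BCR/ABL precursors and 6.09 to 6.18 in the wild-type precursors. The BCR/ABL precursors were all male and the wild-type precursors all female, so sex and genotype cannot be told apart here. In the Pax5+/- precursors, where 1.23% of all genes were higher and 2.94% lower, 0 of the 22 were higher and Ikbke alone was lower (-0.38 ± 0.091 (SE, adjusted p = 0.0497)).

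Of the 12 negative regulators measured, 3 were higher and 4 lower in the Pax5+/- leukaemias against B220+ cells (25% and 33.3%, against 12.9% and 18.9% of all genes). The phosphatase Ptpn11 rose by 0.69 ± 0.11 (SE, adjusted p = 0.000358) and the ubiquitin-editing enzyme Tnfaip3 differed by -1.35 ± 0.21 (SE, adjusted p = 0.000384). In the BCR/ABL leukaemias 2 were higher and 6 lower (16.7% and 50%, against 9.48% and 11.9%), with Tnfaip3 at -2.50 ± 0.30 (SE, adjusted p = 0.000137) and Ptpn6 at -1.16 ± 0.18 (SE, adjusted p = 0.000682). Of the 12, 0 passed in the Pax5+/- precursors against wild type and 5 in the BCR/ABL precursors, 2 higher and 3 lower (16.7% and 25%, against 11.6% and 15.5%). Socs1, the feedback inhibitor of JAK kinases, was among those higher there (0.66 ± 0.17 (SE, adjusted p = 0.0231)).

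Of 30 other interferon targets measured, 6 were higher and 3 lower in the Pax5+/- leukaemias against B220+ cells (20% and 10%, against 12.9% and 18.9% of all genes), and 4 and 2 in the BCR/ABL leukaemias (13.3% and 6.67%, against 9.48% and 11.9%). The membrane proteins that block viral entry rose: Ifitm3 by 4.17 ± 0.41 (SE, adjusted p = 1.3e-05), Ifitm1 by 4.03 ± 0.34 (SE, adjusted p = 4.3e-06) and Ifitm2 by 2.59 ± 0.20 (SE, adjusted p = 1.7e-06) in the Pax5+/- leukaemias. Ifitm3 lay at 11.14 to 12.58 there, at 12.01 and 12.17 in the BCR/ABL leukaemias, and at 6.50 to 9.29 in the B220+ cells. The Ifitm3 groups did not overlap. The guanylate-binding protein Gbp7 rose by 2.72 ± 0.37 (SE, adjusted p = 0.000156). Which cells the differences of these targets and of the negative regulators came from was not tested. In the Pax5+/- precursors 0 of the 30 were higher and Tor3a was lower (-0.44 ± 0.079 (SE, adjusted p = 0.0247)). In the BCR/ABL precursors 0 were higher and 2 lower (6.67%, against 15.5% of all genes), the immunoproteasome subunit Psmb9 (-0.39 ± 0.11 (SE, adjusted p = 0.0249)) and the transcription factor Irf8 (-0.69 ± 0.20 (SE, adjusted p = 0.0303)).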

How the data were processed

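Total RNA from 24 marrow samples was hybridised to Affymetrix mouse gene arrays with 1 biotin label. The authors deposited 1 table of log2 intensities, which the submitters' processing notes credit to RMA and the package oligo (versions not given in the sources used here), for 35556 probe sets. Of these, 21789 carried 1 gene symbol, 1621 several and 12146 none in the platform annotation, and only those with 1 symbol were used, with the probe set of the highest mean over all arrays for each of 19938 genes. Array precision is limited by the number of arrays. Groups follow the sample titles.

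Limma 3.58.1 (R 4.3.3: lmFit, contrasts.fit, eBayes, two-sided) was fitted on the 14 arrays of the leukaemia set, on the 10 precursor arrays, or, for comparisons across those sets and for the interaction, on all 24, with Benjamini-Hochberg adjustment over all genes. The fits were tested on simulated data. Difference, SE and adjusted p are given for up to 8 passing members per comparison, a member alone in its direction and up to 4 passing genes per other list. Members and lists were chosen with earlier results of these data known. Alternatives were other scalings, array weights, an intensity trend, a filter on dim genes, the mean of all probe sets, other arrays in the fit, the replicate number as a block and leaving out each array, and, chosen after seeing the data, female arrays only (sex read from Xist). Same-numbered arrays of the Pax5+/- and BCR/ABL precursors deviated together (correlations of 0.208 to 0.25, against at most 0.13 for other numbers). Differently numbered BCR/ABL and wild-type precursor arrays reached 0.441, and no label states a pairing. Whether the numbers pair the samples is therefore not known.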

Additional observations from a re-analysis of the deposited data

Results flagged for a closer look

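Each of the 36 members and their mean was examined in the 3 groups of 4 to 7 arrays, 111 sets of values, and 2 members had an array set apart from the rest by Dixon's criterion, which chance meets in about 1 group in 20. The 2 flags among 111 sets are no more than that rate gives. Dtx3l, a ubiquitin ligase that pairs with Parp9, was highest on Pax5+/- leukaemia array 2, at 10.91 against 10.3 on the next array, a gap of 0.683 of the group's range. Bst2 was highest on B220+ array 4, at 9.74 against 8.74 on the next, a gap of 0.72 of the range. The plasmacytoid dendritic cell markers were also highest there among the B220+ arrays, at a mean of 10.75 against 9.73 to 10.12. So were the NK cell markers, at 7.53 against 6.61 to 7.43. Their part in the result was not tested.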

How the results depend on the processing

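In each comparison the differences of up to 8 passing members, and of a member alone in its direction, were followed through the alternatives, 72 in all. They kept their sign under all 1255 alternatives run. Of these alternatives 1124 left the call on the same side of the threshold and 131 lost it. The settings that ended most calls were other arrays in the fit (21), array weights (17) and leaving out BCR/ABL leukaemia array 1 (15).

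Counts of members moved as follows. For the Pax5+/- leukaemias against B220+ cells, leaving out 1 array gave 4 to 14 higher, and female arrays gave 8. For the BCR/ABL leukaemias against B220+ cells, array weights gave 2 higher and 0 lower, all 24 arrays 14 higher, and leaving out 1 array 1 to 11 higher and 1 to 2 lower. Between the leukaemias, array weights and the replicate block gave 0 lower, all 24 arrays 2, and leaving out 1 array 0 to 2. For the Pax5+/- against wild-type precursors, array weights gave 19 higher and 2 lower, all 24 arrays 0 and 0, the block 3 and 0, and leaving out 1 array 1 to 10 higher and 0 lower. For the BCR/ABL against wild-type precursors, array weights gave 11 higher, all 24 arrays 0 higher and 0 lower, the block, quantile normalisation and cyclic loess 1 lower, and leaving out 1 array 5 to 11 higher and 0 to 3 lower. Between the transgenic precursors, array weights gave 1 higher and 1 lower, and leaving out 1 array 0 to 1 higher. For the Pax5+/- leukaemias against their precursors, array weights gave 18 higher and 2 lower, the block 19 higher, and leaving out 1 array 7 to 16 higher and 0 to 1 lower. For the BCR/ABL leukaemias against theirs, array weights gave 4 higher and 0 lower, a fit on these groups alone 11 and 0, and leaving out 1 array 6 to 16 higher and 0 to 1 lower. For the B220+ cells against wild-type precursors, array weights gave 16 higher and 3 lower, these groups alone 11 and 2, the block 8 higher, female arrays 1 lower, and leaving out 1 array 3 to 5 higher. For the BCR/ABL leukaemias against wild-type precursors, array weights gave 4 higher and leaving out 1 array 4 to 20. For the interaction, leaving out 1 array gave 0 to 2 lower. The cause was not tested. Leaving out an array also leaves fewer degrees of freedom, whether the count then fell or rose.

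Scaling moved the split of calls over all genes. The share of calls that were higher was 40.5% and, with cyclic loess, 54.6% for the Pax5+/- leukaemias against B220+ cells, 44.4% and 58.6% for the BCR/ABL leukaemias, 36.6% and 55.8% and 39.6% and 55.4% for each against its own precursors, 39.3% and 57.2% and 43.7% and 62.9% for each against wild-type precursors, and 32.6% and 43.6% for the interaction. With median centring it went from 42.9% to 30.1% for the BCR/ABL against wild-type precursors, from 51.8% to 63.6% for the B220+ cells against wild-type precursors, and from 39.6% to 51.9% for the BCR/ABL leukaemias against their precursors.

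Same-numbered arrays did not tend to correlate best outside the comparison of the transgenic precursor groups. Among groups with 3 or more shared numbers, 1 of 5 Pax5+/- leukaemias correlated best with the same-numbered B220+ array. This held for 0 of 3 arrays of either transgenic precursor group with the same-numbered wild-type array.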
